A study of Mus musculus with 9 samples.

Results

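The proteasome rows of the count table are those whose symbol is Psm, a letter from a to g and a number. These are 48 of 37203 gene entries, and 46 of them held enough counts to be tested, among 14581 genes in all. Psma8, an alpha subunit used in testis, and Psmb11, a beta subunit used in thymus, did not pass the filter on low counts, with at most 3 counts in any library. The rows cover the alpha ring of the core particle (8 rows), its constitutive beta ring (7), the immune beta subunits Psmb8, Psmb9 and Psmb10, the thymic beta subunit, the ATPases (6) and the other subunits (11) of the regulatory particle, assembly factors of that particle (3) and of the core (4), activators (4) and the inhibitor Psmf1.

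RNA from the liver of Wistar rats was sequenced in 9 libraries, 3 per group. The schisandrin B group had been given carbon tetrachloride (CCl4), a hepatotoxic solvent, at 2 mL/kg of a 50% mixture with olive oil, 3 times a week for 8 weeks, and daily schisandrin B, a lignan of Schisandra fruit, during the last 4 weeks. The fibrosis group had been given the CCl4 course alone, and the normal group olive oil in place of CCl4. All rats are described as male, and the study dosed schisandrin B at 25 or 50 mg/kg, with 8 rats per group. The dose behind the sequenced libraries, the age of the rats and whether the 3 libraries of a group are 3 animals are not stated. The p-values therefore rest on library-to-library spread alone, which may be technical. Gene symbols are those of the file.

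The proteasome is the protease of the cytosol and nucleus that degrades proteins tagged with ubiquitin. A barrel-shaped core, 20S, cuts the chain inside its beta rings, and a regulatory cap, 19S, binds the ubiquitin, removes it and unfolds the substrate. When proteasome activity falls, the transcription factor Nfe2l1 is known to raise the genes of both particles together. Interferon gamma brings in the immune subunits Psmb8, Psmb9 and Psmb10 in place of the catalytic subunits Psmb5, Psmb6 and Psmb7, which changes the peptides available for antigen presentation. In liver the immune subunits are found in hepatocytes and at high levels in leukocytes.

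Promoter letters are shown for Psmd12, whose RNA rose most in fibrosis against normal libraries, and for Psmb9 and Psmb8, neighbours in the MHC region whose RNA fell there. They come from the mouse RefSeq annotation of GRCm38.p6, the build family that the submitters' processing notes name. The strain is given as rat, so the letters show the mouse genes and not the genome of these animals. Each window runs 5′ to 3′ from 250 bases before to 50 bases after the gene start. In Psmd12 (chr11:107479278-107479577, plus strand) the capitals mark TGACNNNGC, the core of the antioxidant response element that Nfe2l1 and Nfe2l2 bind, read on the reverse strand. In Psmb8 (chr17:34197945-34198244, plus strand) they mark TTCNNNGAA, the letters of the gamma activated site, an element of genes that answer interferon gamma. In Psmb9 (chr17:34187281-34187580, minus strand) they mark a CCAAT box, the site of the Nfya, Nfyb and Nfyc complex, read on the reverse strand.
Psmd12: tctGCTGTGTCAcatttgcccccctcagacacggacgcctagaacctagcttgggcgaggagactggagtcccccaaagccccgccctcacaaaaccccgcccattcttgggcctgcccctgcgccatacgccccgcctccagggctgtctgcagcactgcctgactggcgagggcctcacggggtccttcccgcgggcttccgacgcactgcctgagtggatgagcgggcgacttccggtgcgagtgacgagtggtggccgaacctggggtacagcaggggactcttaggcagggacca
Psmb8: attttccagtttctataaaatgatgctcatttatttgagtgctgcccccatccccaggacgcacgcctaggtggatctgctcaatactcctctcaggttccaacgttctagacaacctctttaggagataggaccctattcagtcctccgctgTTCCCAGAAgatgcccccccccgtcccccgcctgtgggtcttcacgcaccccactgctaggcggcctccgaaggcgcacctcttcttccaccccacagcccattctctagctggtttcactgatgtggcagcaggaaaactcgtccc
Psmb9: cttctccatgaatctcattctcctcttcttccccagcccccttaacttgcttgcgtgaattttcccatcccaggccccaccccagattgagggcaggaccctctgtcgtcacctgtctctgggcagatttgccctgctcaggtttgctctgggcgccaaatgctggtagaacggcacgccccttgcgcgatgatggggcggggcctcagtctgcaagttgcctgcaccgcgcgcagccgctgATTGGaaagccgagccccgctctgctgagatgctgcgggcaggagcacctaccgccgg

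Of the 48 members 40 had a promoter window in the mouse table. TGACNNNGC, on either strand, stood in 6 of the 40 (15%), namely Psmb5, Psmb6, Psmc6, Psmd9, Psmd12 and Psme4, and in 14% of all 27025 genes with a window. TTCNNNGAA, which reads the same on both strands, stood in 3 of the 40 (7.5%), namely Psmb8, Psmd2 and Psmg1, and in 9.55% of all genes. The core of the interferon stimulated response element stood in 5 of the 40 (12.5%), namely Psmb3, Psmd4, Psmd9, Psme1 and Psmg4, and in 3.99% of all genes, counting both strands. CCAAT stood in 14 of the 40 (35%) and in 41.1% of all genes on either strand. These are matches of letters and no measure of binding.

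Library totals ran from 10320299 to 16255167 counts, and levels below are counts divided by the library size in units of 1000000 counts (CPM) after TMM scaling, which assumes that most genes do not differ between libraries. Tests are edgeR's quasi-likelihood test with Benjamini-Hochberg adjustment over all genes tested, and a gene is called at an adjusted p under 0.05. Hepatocyte markers (Alb, Ttr, Apoa1, Apob, Tf, Cps1 and Hnf4a) together took 178533 to 198354 CPM in schisandrin B, 51558 to 92777 CPM in fibrosis and 215864 to 250763 CPM in normal libraries, so the liver label fits its defining markers, which were lowest in fibrosis. The Y-linked genes Kdm5d and Eif2s3y had 0 counts in every normal library and 5.91 to 13.3 CPM in the 6 others, although all rats are labelled male. Ddx3y, also Y-linked, did not follow them: it had 1.53, 0.51 and 0.548 CPM in schisandrin B, 0.971, 1.21 and 1.53 CPM in fibrosis and 1.03, 0.813 and 2.59 CPM in normal libraries, and was not called. In each comparison with normal libraries a difference in sex therefore cannot be told apart from treatment. In bulk tissue, fewer cells of a type and less RNA per cell cannot be told apart either. Fibrosis replicate 1 differed most from its group, and results are given without it where that changes them.

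**Figure D1:**
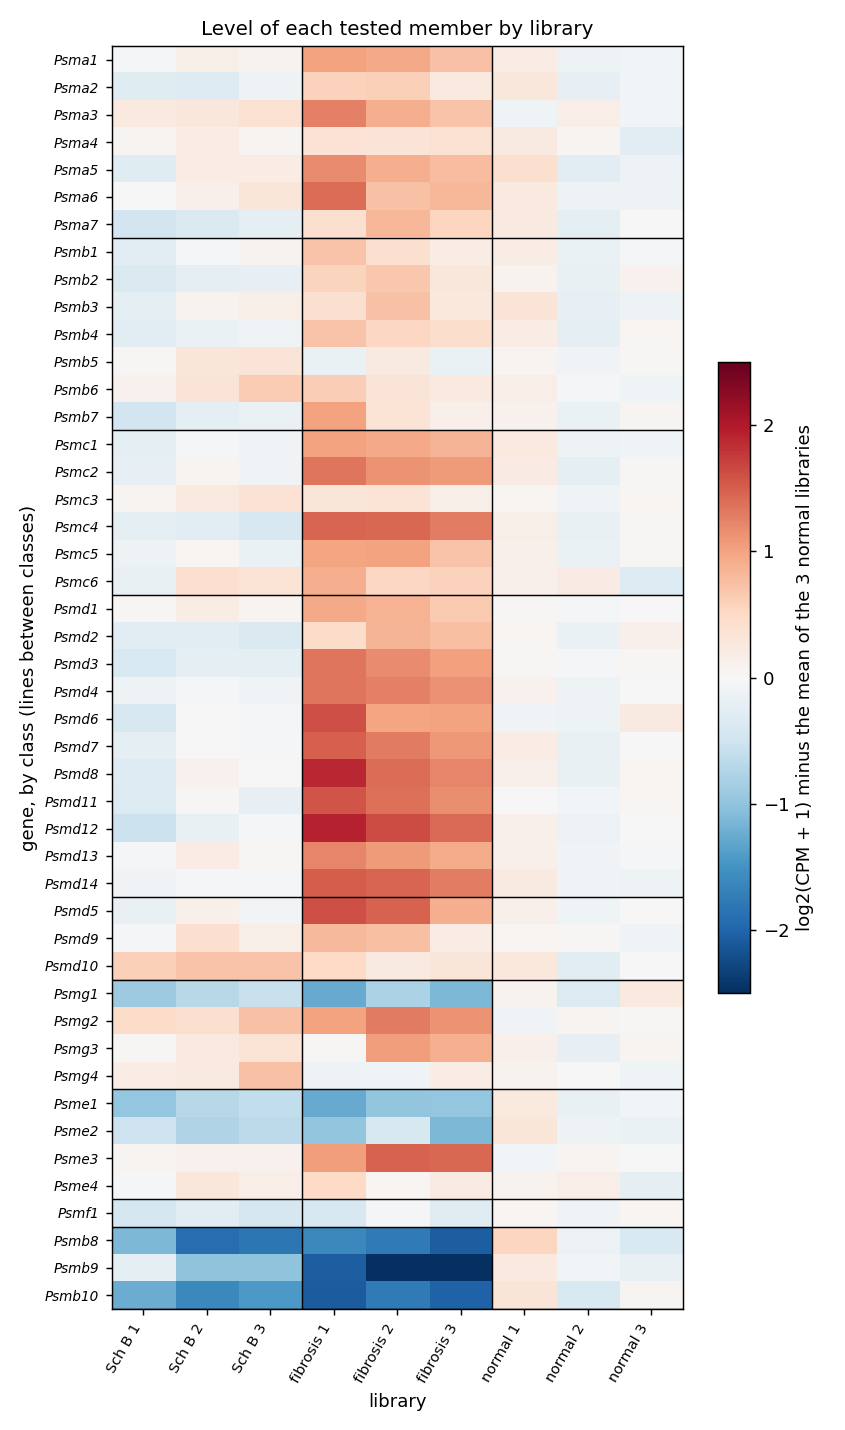
Level of the 46 tested members (rows, grouped by class, lines between classes) in the 9 libraries (columns), as log2(CPM + 1) minus the mean of the 3 normal libraries, with the colour scale ending at -2.5 and 2.5. Most core and regulatory subunits are red in the fibrosis columns and pale in the schisandrin B and normal columns, Psmb5 being an exception, while Psmb8, Psmb9, Psmb10, Psme1, Psme2 and Psmg1 are blue in fibrosis columns.

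In fibrosis against normal libraries RNA of most constitutive core and regulatory subunits rose, and RNA of the immune subunits fell. The constitutive catalytic subunits Psmb5, Psmb6 and Psmb7 were not called. Over all members 29 of 46 rose and 6 fell, where 25.4% of all genes tested rose, 22.9% fell and 48.3% did either. The groups did not overlap in 37 members, with fibrosis higher in 31 and lower in 6, against 29% and 26.8% of all genes tested. The median log2 fold change was 0.69 over the members and 0.03 over all genes tested. Of the 31 tested subunits of the core and the regulatory particle without the immune ones, 24 rose, 0 fell and 30 had a positive log2 fold change. All 3 immune subunits fell.

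Summed over the constitutive core and regulatory subunits, the level was 5037, 4635 and 4105 CPM in the 3 fibrosis libraries, against 2745, 2246 and 2490 CPM in the normal libraries. The groups did not overlap, and the log2 ratio of the means was 0.88. The sum gives no test, since it adds up members that were chosen. With library totals in place of TMM factors the ratio was 1.30, and the median of all genes moved by 0.43. Under that scaling 37 members rose and 5 fell, and the share of called genes that are higher, over all genes, was 74.7% against 52.7% with TMM.

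The regulatory particle led the rise. All 11 of its subunits without ATPase activity rose, with log2 fold changes of 0.70 to 1.69 and a median of 1.26. Psmd12, a scaffold subunit of the lid, had 187, 152 and 131 CPM in fibrosis libraries, against 52.7, 44.0 and 49.1 CPM in normal libraries. The lowest fibrosis library thus stood above the highest normal one. It rose 3.23-fold, a log2 fold change of 1.69 ± 0.20 (SE) with an edgeR adjusted p of 4.34e-05, the largest change among the members that rose.

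Psmd14, the enzyme that cuts ubiquitin off the substrate, had 77.3, 73.8 and 65.2 CPM in fibrosis libraries, against 31.1, 24.6 and 23.9 CPM in normal libraries. The groups were far apart, and its log2 fold change was 1.44 ± 0.16 (SE, edgeR adjusted p 3.67e-05). Psmd4, a receptor for ubiquitin chains, had 213, 201 and 184 CPM in fibrosis libraries, against 89.4, 76.4 and 84.0 CPM in normal libraries. Its log2 fold change was 1.26 ± 0.16 (SE, edgeR adjusted p 6.75e-05), and again the groups did not overlap. Psmd2 and Psmd1, the large scaffold proteins of the base, rose least in this class, by 0.70 and 0.83 on the log2 scale.

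Of the 6 ATPases, which pull the unfolded chain into the core, 5 rose, with a class median of 0.92. Psmc4 had 203, 201 and 179 CPM in fibrosis libraries, against 81.3, 64.7 and 75.5 CPM in normal libraries. Its groups did not overlap, and it rose by 1.40 ± 0.16 on the log2 scale (SE, edgeR adjusted p 4.47e-05). Psmc2 rose by 1.18 ± 0.17 (SE, edgeR adjusted p 0.000234) and Psmc5 by 0.92 ± 0.16 (SE, 0.000808). Psmc3 was the exception, with 178, 181 and 159 CPM in fibrosis libraries, against 149, 135 and 148 CPM in normal libraries. These groups did not overlap, but the log2 fold change of 0.26 ± 0.16 (SE) was not called, with an edgeR adjusted p of 0.203.

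The core particle showed smaller changes. Of 7 tested alpha subunits, which form the outer rings and the gate, 6 rose, with log2 fold changes from 0.47 for Psma2 to 1.07 for Psma3 and a class median of 0.91. Psma1 had 101, 96.4 and 83.6 CPM in fibrosis libraries, against 56.9, 45.7 and 47.5 CPM in normal libraries. The groups did not overlap, and its log2 fold change was 0.91 ± 0.16 (SE, edgeR adjusted p 0.000768). Psma2 was the weakest call, with an edgeR adjusted p of 0.0478, and it was lost in 13 of 18 alternatives, where the p ranged up to 0.169. The Psma7 call was lost in 5 of 18.

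Of 7 constitutive beta subunits 2 rose, Psmb2 and Psmb4, by 0.52 and 0.55 on the log2 scale, and the class median was 0.47. The count of 2 of 7 is near the share over all genes tested, of which 25.4% rose. Psmb2 lost the call in 3 of 18 alternatives, among them those without fibrosis replicate 2 or normal replicate 2. Psmb4 lost it in 5 of 18, among them those without normal replicate 2, normal replicate 3 or schisandrin B replicate 1. None of the catalytic subunits passed the test. Psmb5, which carries the chymotrypsin-like activity, had 75.9, 99.9 and 76.0 CPM in fibrosis libraries, against 89.5, 80.3 and 87.0 CPM in normal libraries, and the groups overlapped. Psmb6, with the caspase-like activity, had 25.2, 20.3 and 19.1 CPM in fibrosis libraries, against 18.2, 15.5 and 14.8 CPM in normal libraries. Psmb7, with the trypsin-like activity, had 204, 129 and 111 CPM in fibrosis libraries, against 108, 89.3 and 107 CPM in normal libraries. For Psmb6 and Psmb7 the groups did not overlap, and the edgeR adjusted p were 0.104 and 0.0655. Psmb7 was called without fibrosis replicate 3, but 16 of 18 alternatives did not call it. With each library left out in turn, its log2 fold change was 0.24 to 0.72.

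The ratio of the summed regulatory subunits to the summed core subunits was 1.91, 1.86 and 1.94 in fibrosis libraries, against 1.23, 1.37 and 1.36 in normal libraries. In schisandrin B libraries it was 1.37, 1.37 and 1.25. The fibrosis libraries stood above all others. CPM are not corrected for gene length, so only the difference of this ratio between groups can be read, and it has no test for the reason given for the sum.

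**Figure D2:**
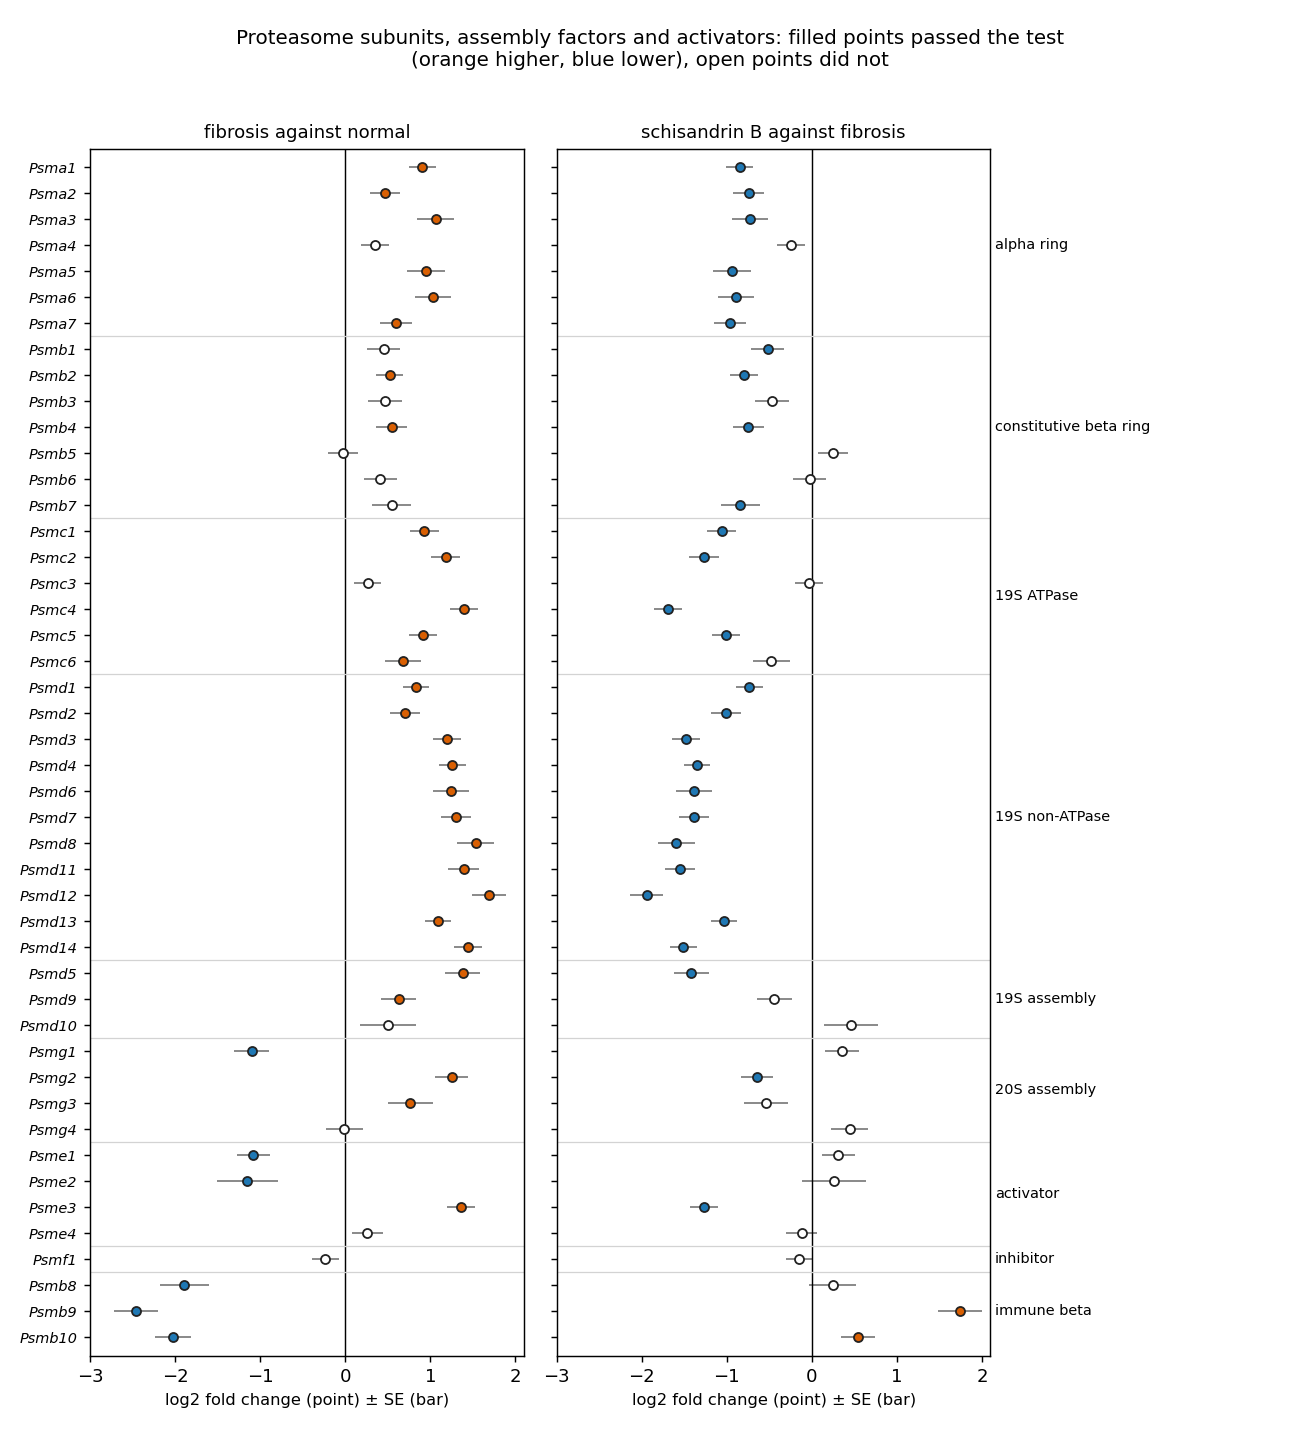
Log2 fold change (points) with its SE (bars) of each tested member, in rows by class, for fibrosis against normal (left) and schisandrin B against fibrosis (right). Filled points passed the test, orange for higher and blue for lower. All 11 regulatory subunits without ATPase activity lie between 0.70 and 1.69 on the left and between -1.94 and -0.73 on the right, and the immune subunits lie on the other side of 0 in each panel. Both panels use the fibrosis libraries.

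The 3 immune subunits were the members that fell most. Psmb9 had 16.0, 11.7 and 11.2 CPM in fibrosis libraries, against 84.0, 67.1 and 62.0 CPM in normal libraries. All fibrosis libraries were far below all normal ones, and the log2 fold change was -2.46 ± 0.26 (SE, edgeR adjusted p 2.38e-05). Psmb8 had 35.7, 31.9 and 26.1 CPM in fibrosis libraries, against 162, 101 and 85.2 CPM in normal libraries. It fell by 1.89 ± 0.28 on the log2 scale (SE, edgeR adjusted p 0.000255). Psmb10 had 20.2, 25.4 and 21.3 CPM in fibrosis libraries, against 111, 68.3 and 93.0 CPM in normal libraries, and fell by 2.02 ± 0.21 on the log2 scale (SE, edgeR adjusted p 2.11e-05). The groups did not overlap for any of the 3, and all 3 stayed called in each of the 18 alternatives, library totals and every left-out library included.

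The activators split by type. Psme1 and Psme2 form the cytosolic ring that interferon gamma induces with the immune subunits. Psme1 had 102, 124 and 126 CPM in fibrosis libraries, against 294, 218 and 234 CPM in normal libraries, and fell by 1.08 ± 0.19 on the log2 scale (SE, edgeR adjusted p 0.000751). Its reads can be shared with the pseudogene row Psme1-ps1, but with both rows summed Psme1 was still called. Psme2 was low, at 1.38, 2.57 and 1.17 CPM in fibrosis libraries, against 4.81, 3.32 and 3.24 CPM in normal libraries. It fell by 1.15 ± 0.36 (SE, edgeR adjusted p 0.0211), a call that ended with library totals and without fibrosis replicate 3 or normal replicate 1.

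Psme3, the nuclear activator that acts without ubiquitin, moved the other way. It had 61.2, 83.2 and 81.3 CPM in fibrosis libraries, against 27.8, 30.8 and 29.2 CPM in normal libraries. The groups did not overlap, and it rose by 1.36 ± 0.16 on the log2 scale (SE, edgeR adjusted p 5.68e-05). Psme4, the other nuclear activator, had 87.2, 64.2 and 71.8 CPM in fibrosis libraries, against 65.6, 69.6 and 51.7 CPM in normal libraries, and was not called (edgeR adjusted p 0.267). The inhibitor Psmf1 had 77.6, 101 and 83.3 CPM in fibrosis libraries, against 106, 96.3 and 107 CPM in normal libraries, and was not called either (edgeR adjusted p 0.242).

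The assembly factors also split. Psmg1 and Psmg2 are partners in a chaperone that starts the alpha ring. Psmg1 had 18.1, 25.7 and 20.1 CPM in fibrosis libraries, against 48.0, 35.6 and 53.5 CPM in normal libraries, and fell by 1.10 ± 0.20 on the log2 scale (SE, edgeR adjusted p 0.00104). Psmg2 had 15.9, 19.7 and 17.4 CPM in fibrosis libraries, against 6.87, 7.86 and 7.53 CPM in normal libraries, and rose by 1.25 ± 0.19 (SE, edgeR adjusted p 0.000288). Neither gene's groups overlapped, so RNAs for both partners of one complex went in opposite directions.

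Psmg3 and Psmg4 form the second such chaperone. Psmg3 rose by 0.76 ± 0.26 (SE, edgeR adjusted p 0.0317), although fibrosis replicate 1, at 10.8 CPM, lay within the normal range, and the call was lost in 9 of 18 alternatives. Psmg4 had a log2 fold change of -0.01 ± 0.22 (SE, edgeR adjusted p 0.97). Of the chaperones of the regulatory base, Psmd5 had 120, 108 and 72.6 CPM in fibrosis libraries, against 41.9, 35.4 and 38.1 CPM in normal libraries, and rose by 1.38 ± 0.20 (SE, edgeR adjusted p 0.000213). Psmd9 rose by 0.63 ± 0.20 (SE, 0.0245), a call that ended without fibrosis replicate 1 or 2 or any normal library. Psmd10, also known as the oncoprotein gankyrin, stood at 2.67, 2.04 and 2.23 CPM in fibrosis libraries, against 2.147, 1.15 and 1.62 CPM in normal libraries, and was not called (edgeR adjusted p 0.223).

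In schisandrin B against fibrosis libraries, RNA of most constitutive core and regulatory subunits was lower and that of Psmb9 was higher. Of 46 members 28 fell and 2 rose, where 24.8% of all genes tested fell, 22.5% rose and 47.3% did either. The schisandrin B libraries lay below all fibrosis libraries in 31 members and above them in 4, as did 29% and 27.8% of all genes tested. The median log2 fold change was -0.74 over the members and -0.03 over all genes tested. Both groups carry Y-linked transcripts. This comparison shares the fibrosis libraries with the one above, so a chance high value there would appear in both. With library totals 33 members fell and 1 rose, and the median gene moved by -0.27. Upper-quartile scaling moved it by 0.13.

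The summed constitutive level was 2127, 2440 and 2434 CPM in schisandrin B libraries, against 5037, 4635 and 4105 CPM in fibrosis libraries. The log2 ratio of the means was -0.98, and -1.24 with library totals. All 11 regulatory subunits without ATPase activity fell, with a median of -1.39, as did 4 of 6 ATPases (median -1.03), 6 of 7 alpha subunits (median -0.85) and 4 of 7 constitutive beta subunits (median -0.52).

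Psmd12 had 32.9, 42.6 and 46.7 CPM in schisandrin B libraries, against 187, 152 and 131 CPM in fibrosis libraries. It fell by 1.94 ± 0.20 on the log2 scale (SE, edgeR adjusted p 2.49e-05), and its groups were widely separated. Psmc4 had 63.1, 61.4 and 55.3 CPM in schisandrin B libraries, against 203, 201 and 179 CPM in fibrosis libraries, and fell by 1.70 ± 0.16 (SE, edgeR adjusted p 1.88e-05). Psmd14 had 24.7, 25.7 and 25.6 CPM in schisandrin B libraries, against 77.3, 73.8 and 65.2 CPM in fibrosis libraries, and fell by 1.51 ± 0.16 (SE, edgeR adjusted p 3.55e-05). The 3 schisandrin B values of Psmd14 lay close together and below every fibrosis value.

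Psmd3, a lid subunit, fell by 1.48 ± 0.16 (SE, edgeR adjusted p 4.23e-05) and Psmc2 by 1.27 ± 0.18 (SE, 0.000162). Among the core subunits, Psma1 fell by 0.85 ± 0.16 (SE, 0.00123), Psma7 by 0.96 ± 0.19 (SE, 0.00155) and Psmb2 by 0.80 ± 0.17 (SE, 0.00214). Psmb7 had 72.4, 86.0 and 89.4 CPM in schisandrin B libraries, against 204, 129 and 111 CPM in fibrosis libraries, and fell by 0.84 ± 0.23 (SE, 0.00987), a call lost without schisandrin B replicate 1. Psmb5 had 87.0, 106 and 106 CPM in schisandrin B libraries, against 75.9, 99.9 and 76.0 CPM in fibrosis libraries, and was not called (edgeR adjusted p 0.257). It was the only constitutive core or regulatory subunit with a positive log2 fold change here, 0.25 ± 0.17 (SE), and its sign was not the same in all alternatives. Psmb6 had 17.5, 20.3 and 25.7 CPM in schisandrin B libraries and was not called either (edgeR adjusted p 0.925). Psmb1 fell by 0.52 ± 0.19 (SE, 0.0441), and that call was lost in 12 of 18 alternatives, with p up to 0.212.

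Of the 3 immune subunits, Psmb9 had the lowest adjusted p. It had 60.4, 34.5 and 34.8 CPM in schisandrin B libraries, against 16.0, 11.7 and 11.2 CPM in fibrosis libraries. It rose 3.34-fold, with no overlap between the groups, by 1.74 ± 0.25 on the log2 scale (SE, edgeR adjusted p 0.000239), and was called in each of the 18 alternatives. Psmb10 had 36.98, 28.4 and 32.2 CPM in schisandrin B libraries, against 20.2, 25.4 and 21.3 CPM in fibrosis libraries. It rose by 0.54 ± 0.20 (SE, edgeR adjusted p 0.0462), but the call was lost in 9 of 18 alternatives, among them each left-out schisandrin B library, fibrosis replicate 1 or 3 and normal replicate 3, where p ranged up to 0.311. Psmb8 had 50.7, 29.0 and 31.2 CPM in schisandrin B libraries, against 35.7, 31.9 and 26.1 CPM in fibrosis libraries. These ranges overlapped, and it was not called (edgeR adjusted p 0.497).

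**Figure D3:**
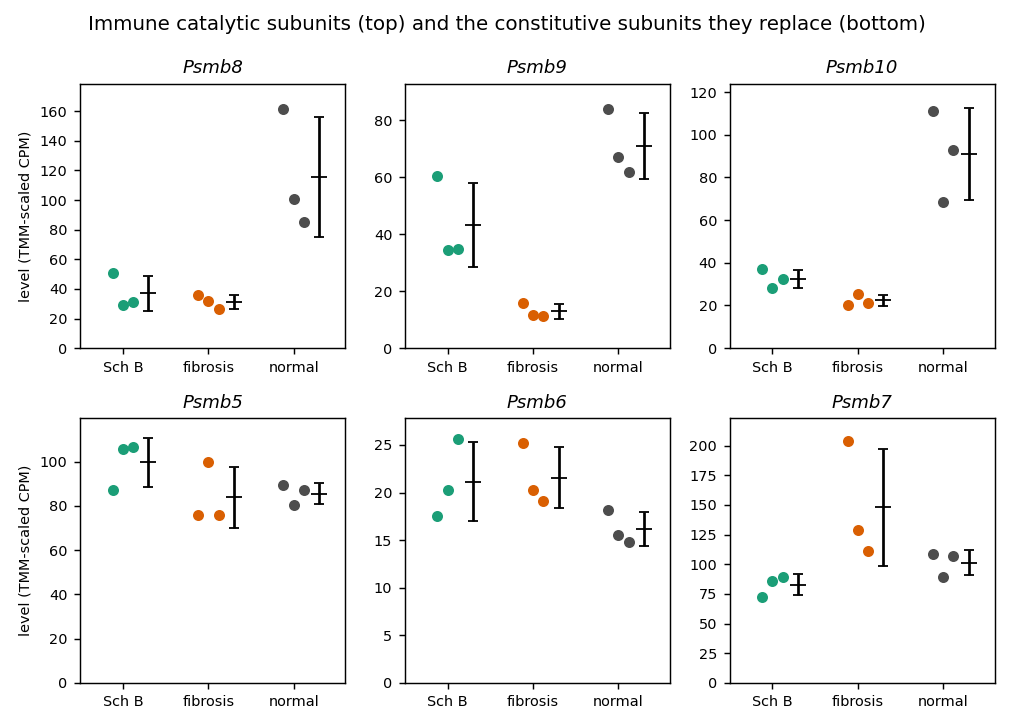
Level in TMM-scaled CPM (y axis, from 0) of the immune subunits Psmb8, Psmb9 and Psmb10 (top) and of Psmb5, Psmb6 and Psmb7, which they replace (bottom), in schisandrin B, fibrosis and normal libraries. Points are libraries and bars the mean and SD of 3. For Psmb9 the schisandrin B libraries, at 34.5 to 60.4 CPM, lie between the fibrosis libraries (11.2 to 16.0) and the normal ones (62.0 to 84.0), while for Psmb8 the schisandrin B and fibrosis libraries overlap.

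Psmb9 and Psmb8 counts were also set against each other within a library, where scaling plays no part. The ratio of Psmb9 to Psmb8 counts was 1.19, 1.19 and 1.11 in schisandrin B libraries, 0.449, 0.366 and 0.427 in fibrosis libraries and 0.519, 0.667 and 0.728 in normal libraries. No 2 of the groups overlapped. The schisandrin B libraries were highest although Psmb9 itself was highest in normal libraries. This ratio was looked at after its values had been seen and was not tested. The ratio of Psmb10 to Psmb8 overlapped between all groups, at 0.729 to 1.03 in schisandrin B, 0.567 to 0.816 in fibrosis and 0.680 to 1.09 in normal libraries.

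Of the activators and assembly factors, Psme3, Psmd5 and Psmg2 were called in this comparison. Psme3 had 30.8, 31.5 and 31.5 CPM in schisandrin B libraries, against 61.2, 83.2 and 81.3 CPM in fibrosis libraries, and fell by 1.27 ± 0.16 on the log2 scale (SE, edgeR adjusted p 0.000105). Psmd5 fell by 1.42 ± 0.20 (SE, 0.0002), and Psmg2 by 0.65 ± 0.19 (SE, 0.0141), the last without a call when fibrosis replicate 2 or schisandrin B replicate 1 or 2 was left out. Psme1, at 125, 153 and 160 CPM in schisandrin B libraries, Psme2, at 2.29, 1.82 and 2.01 CPM, and Psmg1, at 23.6, 27.5 and 30.5 CPM, had positive log2 fold changes of 0.31, 0.26 and 0.35 that were not called, with edgeR adjusted p of 0.2, 0.597 and 0.178. Psme4, Psmf1, Psmg3 and Psmg4 were not called, with edgeR adjusted p of 0.612, 0.476, 0.112 and 0.112.

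Set side by side, 26 of the 46 tested members were called higher in fibrosis against normal and lower in schisandrin B against fibrosis libraries, and 19.2% of all genes tested did so. In 28 members every fibrosis library lay above the 6 others, as in 22.3% of all genes tested. By class these 28 were all 11 regulatory subunits without ATPase activity, 5 of 6 ATPases, 6 of 7 alpha subunits, 3 of 7 constitutive beta subunits, and Psmd5, Psme3 and Psmg2.

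In schisandrin B against normal libraries, 0 members rose and 4 fell, where 5.25% of all genes tested rose, 5.25% fell and 10.5% did either. The schisandrin B libraries lay above all normal libraries in 6 members and below them in 11, as did 19.9% and 18.8% of all genes tested. At an unadjusted p under 0.05, Psmg2 and Psmd10 were higher and 7 members lower. DESeq2 called 1 member higher and limma voom 0. The summed constitutive level was 2127, 2440 and 2434 CPM in schisandrin B libraries, against 2745, 2246 and 2490 CPM in normal libraries, and the ranges overlapped. The 31 constitutive core and regulatory subunits had log2 fold changes of -0.37 to 0.39 with a median of -0.08, and none was called, which does not show that they were equal. With library totals the log2 ratio of the summed level was 0.06 in place of -0.10, and the median gene moved by 0.16.

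The 4 that fell were Psmb8, Psmb10, Psme1 and Psmg1. Psmb8 fell by 1.65 ± 0.28 on the log2 scale (SE, edgeR adjusted p 0.00404), with 50.7, 29.0 and 31.2 CPM in schisandrin B libraries, against 162, 101 and 85.2 CPM in normal libraries. Psmb10 fell by 1.48 ± 0.21 (SE, edgeR adjusted p 0.00115), with 36.98, 28.4 and 32.2 CPM in schisandrin B libraries, against 111, 68.3 and 93.0 CPM in normal libraries. The groups of both genes were apart, and both calls held in each of the 18 alternatives.

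Psme1 fell by 0.77 ± 0.19 (SE, edgeR adjusted p 0.0258) and Psmg1 by 0.75 ± 0.20 (SE, 0.0379). These calls ended with library totals, without normal replicate 1 or 3 and without any one schisandrin B library, which left 2 or 3 members called. Psmb9 was 0.72 ± 0.25 (SE) lower on the log2 scale without a call (edgeR adjusted p 0.0844), although its groups did not overlap, and it was called without schisandrin B replicate 1, its highest library in that group, or without fibrosis replicate 1. Of the 46 members, 4 were called lower in both comparisons with normal libraries, and 3.42% of all genes tested were.

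Each immune subunit was then set against the constitutive subunit whose place it takes, as a ratio of counts within a library. The ratio of Psmb9 to Psmb6 was 3.45, 1.70 and 1.36 in schisandrin B libraries, 0.637, 0.575 and 0.583 in fibrosis libraries and 4.61, 4.32 and 4.19 in normal libraries. The groups were fully separated, with the schisandrin B libraries in the middle. The ratio of Psmb10 to Psmb7 was 0.511, 0.330 and 0.361 in schisandrin B libraries, 0.0994, 0.197 and 0.192 in fibrosis libraries and 1.03, 0.765 and 0.873 in normal libraries, in the same order and again without overlap.

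The ratio of Psmb8 to Psmb5 was 0.584, 0.274 and 0.293 in schisandrin B libraries, 0.470, 0.319 and 0.344 in fibrosis libraries and 1.81, 1.25 and 0.98 in normal libraries. Here the schisandrin B libraries overlapped the fibrosis libraries. On the log2 scale, fibrosis minus normal was -2.87 for Psmb9 over Psmb6, -2.501 for Psmb10 over Psmb7 and -1.81 for Psmb8 over Psmb5. Schisandrin B minus fibrosis was 1.74, 1.34 and -0.04 in the same order, and schisandrin B minus normal was -1.13, -1.16 and -1.85. In the two-sided exact permutation test, 8 of the 9 differences had p = 0.1, the smallest that 3 against 3 libraries allow (0.113 after Benjamini-Hochberg adjustment over the 9), and Psmb8 over Psmb5 between schisandrin B and fibrosis had p = 0.9. The test therefore cannot reach 0.05 here.

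**Figure D4:**
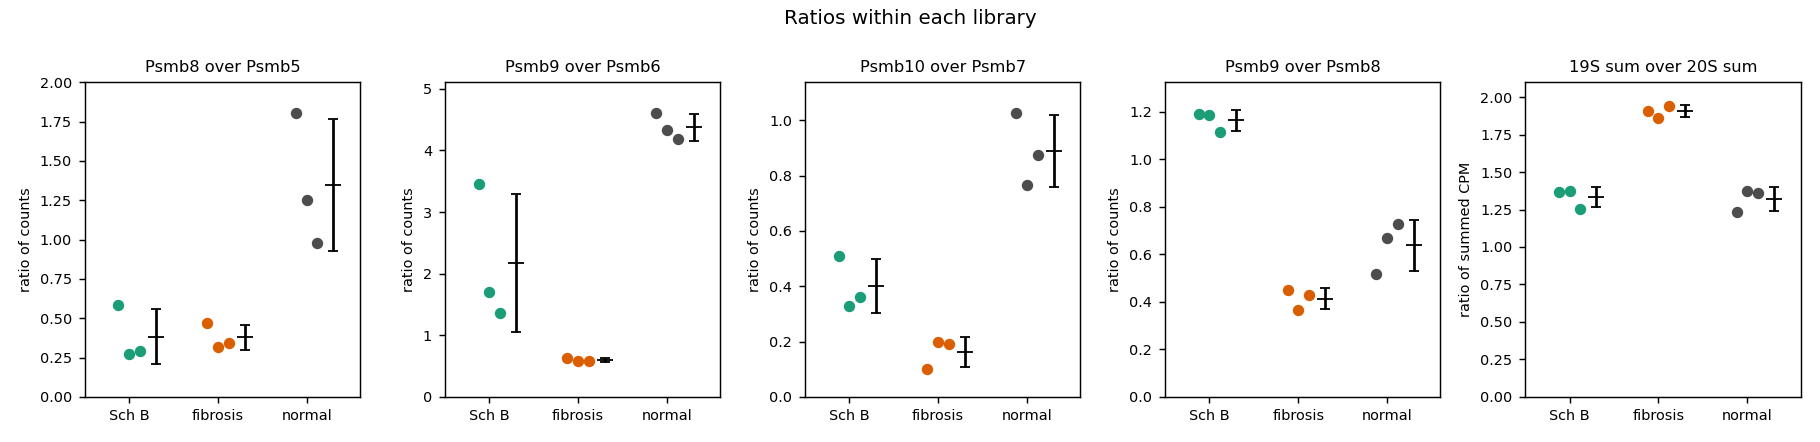
Ratio of the counts of each immune subunit to its constitutive counterpart (first 3 panels), of Psmb9 to Psmb8 (next panel) and of the summed regulatory to the summed core subunits (last panel), in schisandrin B, fibrosis and normal libraries. Points are libraries, bars are the mean and SD of 3, and all y axes start at 0. Fibrosis libraries are lowest for Psmb9 over Psmb6 (0.575 to 0.637) and highest for the regulatory over the core sum (1.86 to 1.94).

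Markers of T, NK and B cells, which carry the immune subunits, were mostly lower in fibrosis than in normal libraries. The 16 T and NK cell markers summed to 112.7, 78.3 and 88.4 CPM in schisandrin B libraries, 109.3, 62.7 and 85.1 CPM in fibrosis libraries and 146.2, 172.9 and 123.7 CPM in normal libraries. Most of it was Cd4, which averaged 67.4, 68.2 and 103 CPM in that order. The sum therefore describes chiefly that gene and not T and NK cells as a whole. Of 11 tested, 9 fell in fibrosis against normal libraries and 0 rose, Cd4 not among them, and 3 fell in schisandrin B against normal libraries. Of 3 tested B cell markers 2 fell in fibrosis and 0 in schisandrin B against normal libraries. Of all genes tested, 22.9% fell in fibrosis and 5.25% in schisandrin B against normal libraries. Cd3e, which defines T cells, averaged 1.18, 0.569 and 1.46 CPM in the 3 groups in that order. The 5 B cell markers in the file summed to 4.37 to 5.02 CPM in schisandrin B, 1.67 to 3.64 CPM in fibrosis and 7.22 to 10.6 CPM in normal libraries. Cd79a was at 0 in schisandrin B libraries and averaged 0.027 CPM in each other group.

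Macrophage markers, 10 in the file, summed to 1059 to 1634 CPM in schisandrin B, 1048 to 2189 CPM in fibrosis and 1772 to 2719 CPM in normal libraries. Of these 10, 1 fell in fibrosis against normal libraries, where 22.9% of all genes tested fell. Dendritic cell markers summed to 227.6 to 347.5, 161.3 to 286.3 and 237.2 to 433.3 CPM in schisandrin B, fibrosis and normal libraries. Of these, 0 of 5 were called in fibrosis against normal libraries (Benjamini-Hochberg adjusted edgeR test), where 48.3% of all genes tested were called. Schisandrin B replicate 1 was the highest of its group for all 3 immune subunits and for the T and NK (mostly Cd4), macrophage and dendritic cell sums. The part of these cells in the fall of the immune subunits was not tested.

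Neutrophil marker sums were highest in fibrosis libraries, at 1.92 to 5.91 CPM in schisandrin B, 15.1 to 20.8 CPM in fibrosis and 4.88 to 10.04 CPM in normal libraries. Bile duct marker sums were too, at 11.96 to 26.6, 50.2 to 62.2 and 18.98 to 24.2 CPM in the same order. Of all genes tested, 22.3% had every fibrosis library above all other libraries. Only 3 of 6 neutrophil and 3 of 4 bile duct markers held enough counts to be tested. Endothelial markers summed to 210.3 to 235.3, 188.4 to 230.0 and 239.4 to 319.7 CPM, and stellate cell markers to 96.1 to 114.3, 77.9 to 122.6 and 76.8 to 117.7 CPM. That sum, mostly Reln, hides opposite changes, named here after their values had been seen: in fibrosis against normal libraries Lrat fell by 3.45 on the log2 scale, while Des and Rgs5 rose by 1.37 and 1.51. Lrat rose by 3.87 in schisandrin B against fibrosis libraries. Their part in the proteasome values was not tested.

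Genes outside the rule that work with the proteasome were counted in the same way. Of 8 listed genes for proteasome-bound and assembly factors found in the file, 6 rose and 0 fell in fibrosis against normal libraries, with a median of 1.33, where 25.4% of all genes tested rose. In schisandrin B against fibrosis libraries 5 fell and 0 rose, where 24.8% of all genes fell. Pomp and Shfm1 were called in neither comparison, and Uchl5 rose in the first (log2 fold change 0.71) without a call in the second (-0.03). Adrm1, a ubiquitin receptor of the regulatory particle, had 72.1, 68.2 and 73.2 CPM in schisandrin B libraries, 278, 218 and 177 CPM in fibrosis libraries and 69.4, 57.9 and 73.6 CPM in normal libraries. It rose by 1.74 ± 0.20 on the log2 scale in fibrosis against normal libraries (SE, edgeR adjusted p 3.68e-05).

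Usp14, a deubiquitinase that docks on the regulatory particle, had 8.89, 10.5 and 8.40 CPM in schisandrin B libraries, 47.7, 35.8 and 37.4 CPM in fibrosis libraries and 12.5, 10.8 and 11.5 CPM in normal libraries. Akirin2, which helps carry the proteasome into the nucleus, rose by 2.27 ± 0.25 in fibrosis against normal libraries (SE, edgeR adjusted p 3.32e-05) and fell by 2.16 ± 0.25 in schisandrin B against fibrosis libraries (SE, 5.53e-05). Ube3c, a proteasome-bound ubiquitin ligase, rose by 1.42 ± 0.21 (SE, 0.000243) and fell by 1.59 ± 0.21 (SE, 0.000133). Pomp, which matures the core, varied within groups, with 13.2, 59.3 and 17.4 CPM in schisandrin B, 33.9, 30.1 and 41.1 CPM in fibrosis and 50.4, 16.7 and 51.1 CPM in normal libraries, and was not called.

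Of 19 tested genes for ubiquitin and its shuttling factors, 13 rose and 0 fell in fibrosis against normal libraries, where 25.4% of all genes tested rose. In schisandrin B against fibrosis libraries 14 fell and 0 rose, where 24.8% of all genes tested fell. Zfand2a, an arsenite-induced proteasome adapter, had 15.9, 15.7 and 14.1 CPM in schisandrin B, 4772, 2323 and 1782 CPM in fibrosis and 9.79, 10.2 and 10.3 CPM in normal libraries. Sqstm1, the receptor that brings ubiquitinated cargo to autophagy, rose by 2.93 ± 0.25 in fibrosis against normal libraries (SE, edgeR adjusted p 6.8e-06). Nploc4 and Ufd1l, cofactors of the segregase Vcp, rose by 1.77 ± 0.18 (SE, 1.68e-05) and 1.46 ± 0.17 (SE, 5.02e-05). The polyubiquitin gene Ubb, named after its values had been seen, had 655, 869 and 889.98 CPM in schisandrin B, 13721, 4255 and 3584 CPM in fibrosis and 1168, 1222 and 1261 CPM in normal libraries, so fibrosis replicate 1 sets much of its fibrosis mean.

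Of 7 factors known to control proteasome genes, 2 rose and 1 fell in fibrosis against normal libraries, with a median of -0.02, near the shares over all genes tested (25.4% and 22.9%). Against fibrosis libraries 3 fell and 0 rose in schisandrin B, where 24.8% of all genes fell. Nfe2l1, whose activity is known to be set largely at the protein level, had 85.9, 98.2 and 92.9 CPM in schisandrin B, 177, 145 and 140 CPM in fibrosis and 161, 154 and 181 CPM in normal libraries. It was not called in fibrosis against normal libraries, where the log2 fold change was -0.10, and was 0.74 ± 0.17 lower in schisandrin B than in fibrosis libraries (SE, edgeR adjusted p 0.00378) and 0.84 ± 0.17 lower than in normal libraries (SE, 0.00958), the last without a call when schisandrin B replicate 1 was left out. Nfya and Nfyb, which bind CCAAT boxes, rose by 0.66 ± 0.24 and 0.70 ± 0.20 in fibrosis against normal libraries (SE, edgeR adjusted p 0.0361 and 0.014). Ngly1, which processes the Nfe2l1 protein, fell by 0.80 ± 0.29 (SE, 0.0418). It had 13.0, 35.6 and 32.2 CPM in fibrosis and 49.3, 42.7 and 48.7 CPM in normal libraries, so fibrosis replicate 1 sets much of this fall. With each library left out in turn, the log2 fold change of Ngly1 was -1.05 to -0.47. The Nfya and Ngly1 calls were each lost in 8 of 18 alternatives, every left-out normal library among them for Ngly1, and the Nfyb call without normal replicate 2 or 3.

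**Figure D5:**
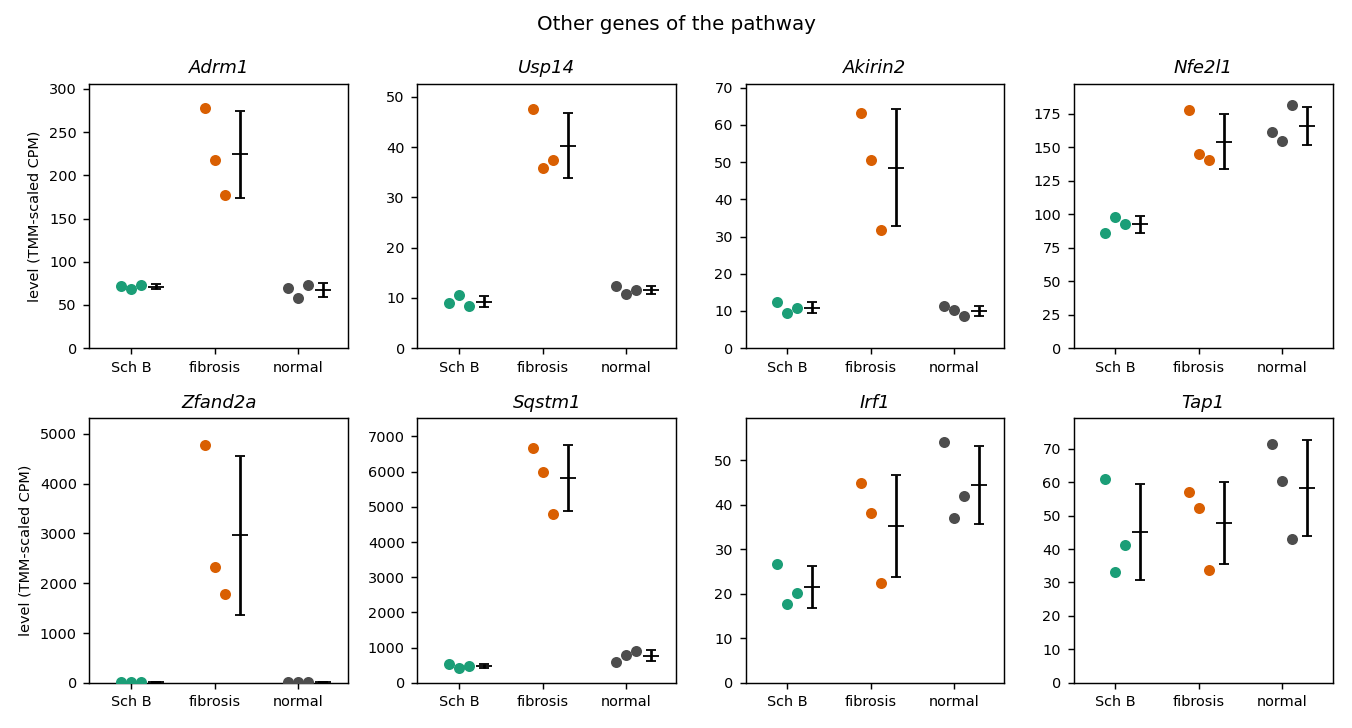
Level in TMM-scaled CPM (y axes, from 0) of 8 genes outside the proteasome rows in schisandrin B, fibrosis and normal libraries. Points are libraries and bars the mean and SD of 3. Adrm1, Usp14, Akirin2, Zfand2a and Sqstm1 are highest in the fibrosis libraries, Nfe2l1 is lowest in the schisandrin B libraries (85.9 to 98.2 CPM), and the fibrosis libraries overlap the other groups for Irf1 and Tap1.

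Of 16 tested genes for interferon control and peptide loading, 7 fell and 1 rose in fibrosis against normal libraries, with a median of -0.68, where 22.9% of all genes tested fell. Between schisandrin B and fibrosis libraries 4 rose and 3 fell, where 22.5% of all genes rose and 24.8% fell. Against normal libraries 5 fell and 0 rose in schisandrin B, with a median of -0.70 and 15 of 16 negative, where 5.25% of all genes fell. Among those 5 were Tapbp and Erap1, which help load and trim peptides for MHC class I, by 0.89 and 0.86 on the log2 scale, and the loading chaperones Calr and Pdia3, by 1.03 and 1.07. Stat2, a factor of type I interferon signalling, fell by 1.61 ± 0.21 on the log2 scale in fibrosis against normal libraries (SE, edgeR adjusted p 0.00011) and rose by 1.57 ± 0.21 in schisandrin B against fibrosis libraries (SE, 0.000141). Irf1, a transcription factor that interferon gamma induces, had 26.8, 17.7 and 20.3 CPM in schisandrin B, 44.8, 38.2 and 22.5 CPM in fibrosis and 54.2, 37.05 and 42.0 CPM in normal libraries. It was not called in fibrosis against normal libraries (edgeR adjusted p 0.305). It fell by 0.70 ± 0.26 on the log2 scale in schisandrin B against fibrosis libraries (SE, edgeR adjusted p 0.0454), but that call was lost in 12 of 18 alternatives, most left-out libraries among them. It also fell by 1.04 ± 0.26 against normal libraries (SE, 0.0288), a call lost without schisandrin B replicate 2 or 3 or normal replicate 1 or 3. Ifng itself had 1 count, in normal replicate 1, and 0 counts in every other library.

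Tap1, a chain of the peptide transporter, starts 226 bases from Psmb9 on the opposite strand in the mouse annotation, and both are known to share a promoter. It had 61.1, 33.2 and 41.2 CPM in schisandrin B, 57.0, 52.3 and 33.8 CPM in fibrosis and 71.4, 60.2 and 43.1 CPM in normal libraries. The groups overlapped, and it was not called in any comparison, while Psmb9 changed in both comparisons with fibrosis libraries. The difference between Tap1 and Psmb9 was not tested. Tap2, the other chain of the transporter, was named after its values had been seen. It averaged 11.2, 4.38 and 9.98 CPM in schisandrin B, fibrosis and normal libraries. Unlike Tap1 it was called in both comparisons with fibrosis libraries. Its log2 fold change was -1.18 in fibrosis against normal and 1.34 in schisandrin B against fibrosis libraries.

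Over the 9 libraries, the genes whose log2 CPM followed Psmb9 most closely by Pearson's r were Tapbpl (0.99), Porcn (0.98), Habp2 (0.98), RGD1561157 (0.97) and Gpx1 (0.97). All 5 averaged highest in normal and lowest in fibrosis libraries. B2m, the light chain of MHC class I, stood at place 282 of all genes tested with 0.92. Psmb10 and Psmb8 followed Psmb9 less closely, at 0.86 and 0.81, at places 1013 and 1608. The 9 points share 3 groups, so these values describe mostly the order of the group means.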

How the data were processed

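Per the file headers, the deposited table holds 1 column of counts per library for 37203 gene symbols. The values are whole raw counts without normalization. No source used here names the aligner, counting tool or annotation, so the handling of reads shared with pseudogenes is unknown. The submitters' processing notes name GRCm38 and the labels name mouse as organism, while the strain is Wistar rat and the symbols are rat symbols.

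The tests used edgeR 4.0.16 (R 4.3.3), where filterByExpr left 14581 genes, libraries were scaled by TMM, and a robust quasi-likelihood model with 1 mean per group was fitted to all 9 libraries. Each pair of groups was tested with Benjamini-Hochberg adjustment, called at 0.05. The SE is the log2 fold change divided by the root of the F statistic. On simulated data with 200 planted changes per comparison, 76% to 85% of 4-fold and 19% to 29% of 2-fold changes were recovered, and 3.39% to 10.7% of calls were false. The 200 are a far smaller share of genes than the 10.5% to 48.3% called in the data. Adjusted p depend on that share, so these rates do not carry over to the calls above.

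Levels are given as CPM with TMM scaling, on which 3 counts, the floor, equal 0.176 to 0.287 CPM, which covers counting error only. Ratios within a library used a prior count of 0.5 on the log2 scale and exact permutation tests with scipy 1.17.1. Alternatives were DESeq2 1.42.0 size factors and test, upper-quartile factors, library totals, no filter, a mean of at least 5 CPM, limma 3.58.1 voom, fits on only the 2 groups compared, omission of the 20 most counted genes and of each library, which makes 18 for each call, or 17 for Psme2 and Psmd10, which the 5 CPM filter removes. Psme1 summed with its pseudogene row was added after seeing the data.

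Every immune subunit with its partner, every activator, Psmf1 and the core assembly factors are named, and in other classes up to 3 members per comparison with the lowest adjusted p, plus exceptions. From each pathway list up to 4 called genes are named, with Nfe2l1, Pomp, Irf1 and Tap1; 1 further gene of that rule is not reported here. Members and lists were chosen with earlier results of these data known. Promoter letters were read from RefSeq with Python 3.11.15, and figures drawn with matplotlib 3.10.9.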

Additional observations from a re-analysis of the deposited data

How the results depend on the processing

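No paired analysis was possible because the labels give no replicate numbers that pair libraries between groups. With library totals, the summed constitutive level gave log2 ratios of 1.30 in fibrosis against normal, -1.24 in schisandrin B against fibrosis and 0.063 in schisandrin B against normal, and 1, 2 and 2 members were called higher in schisandrin B against fibrosis, higher in schisandrin B against normal and lower in schisandrin B against normal. In schisandrin B against fibrosis 1 member was called higher, in place of 2, without a filter and with limma voom. In schisandrin B against normal 1 was called higher, in place of 0, with the DESeq2 test and with only the 2 groups. Leaving out each library in turn gave 23 to 30 members higher and 5 to 6 lower in fibrosis against normal, 1 to 2 higher and 24 to 30 lower in schisandrin B against fibrosis, and 0 to 1 higher and 2 to 5 lower in schisandrin B against normal. It gave a log2 ratio of Psmb8 to Psmb5 of -0.39 to 0.15 between schisandrin B and fibrosis, which has no stable sign: it was 0.15 without schisandrin B replicate 2, 0.10 without schisandrin B replicate 3 and 0.12 without fibrosis replicate 1. The other 8 ratios kept their sign. Of the calls, 22 of 29 and 5 of 6 in fibrosis against normal, 24 of 28 lower and 1 of 2 higher in schisandrin B against fibrosis, and 2 of 4 in schisandrin B against normal held in each of the 18 alternatives. For single named genes, 2973 of 3129 values kept their status, which includes values called in neither fit. Of the others, 130 lost a call, 26 gained one and 0 changed sign with a call. The cause of these losses was not tested. Psme2, Psmd10 and the T and B cell markers rest on few counts.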

Other observations

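Other rows share the prefix of the proteasome genes without being members. The pseudogene row Psme1-ps1 had 24.9, 19.2 and 23.01 CPM in schisandrin B libraries, 21.2, 29.5 and 27.5 CPM in fibrosis libraries and 68.3, 56.8 and 55.4 CPM in normal libraries, the same order of groups as Psme1 except between schisandrin B and fibrosis, where the ranges overlapped. Psmc3ip, which encodes a recombination factor that binds a proteasome ATPase, stood at 2.20, 1.75 and 2.0999 CPM in schisandrin B, 1.62, 2.27 and 2.35 CPM in fibrosis and 2.58, 1.63 and 1.70 CPM in normal libraries. Psma8 had 1, 0 and 4 counts in all schisandrin B, fibrosis and normal libraries together, and Psmb11 had 0, 3 and 0, all at or under 4 counts per group.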
